A study of Mus musculus with 2 samples.

Results

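The cadherin superfamily of adhesion receptors and the catenins that bind their tails were described at the RNA level in mouse hindbrain, the embryonic region that forms the pons, medulla and cerebellum. The set holds 39 genes, taken by GENCODE symbol, out of 43346 Ensembl genes quantified, and all 39 were found in the gene tables of both libraries. They are 4 type I and 13 type II classical cadherins, Cdh13, 10 non-clustered protocadherins, 3 Celsr genes, 4 Fat genes and 4 catenins. The study holds 2 total RNA-seq libraries of hindbrain from B6NCrl embryos at embryonic day 12.5, each from a pool of both sexes. Replicate 1 came from 120 embryos and replicate 2 from 88, and the labels call them biological replicates of 1 group. RNA longer than 200 nt was used, 10 ng of it per library, with external spike-in RNAs added. Both libraries are untreated and carry no allele, and each averages over the many cell types of a whole dissected region. With 1 group there is no contrast between conditions, so every test below compares the 2 libraries with each other.

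Classical cadherins are calcium-dependent receptors that bind cadherins on the neighbouring cell, and each cell tends to sort with cells that carry the same ones. Their tails bind beta-catenin and p120-catenin, and alpha-catenin ties beta-catenin to actin. In the embryonic hindbrain Cdh2 (N-cadherin) holds the junctions of the neuroepithelium, type II cadherins are known for marking nuclei and motor neuron pools, and delta-protocadherins for patterned expression in subsets of neurons. Celsr and Fat proteins are giant cadherins that act in planar cell polarity, the orientation of cells within a sheet.

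Expected counts totalled 31633169 for replicate 1 and 29766460 for replicate 2, and the 39 genes took 0.264% of them in replicate 1 and 0.268% in replicate 2. Their TPM, a level divided by transcript length whose total is the same in each library, summed to 975 in replicate 1 and 999 in replicate 2. With detection set at 1 TPM in each library, 36 of the 39 were detected, beside 63.0% of the 21474 protein-coding genes. The 3 others were Cdh9, Cdh19 and Fat2. Levels spanned a wide range, with 7 genes averaging at least 50 TPM and 20 averaging at least 10 TPM, and the 8 highest genes together took 70.0% of the summed TPM. The coefficient of variation between libraries had a median of 8.84% over the 39 genes. Markers fixed for neurons and neural progenitors were all detected: Tubb3 stood at 856 and 843 TPM and Vim at 872 and 826 TPM in replicates 1 and 2.

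**Figure D1:**
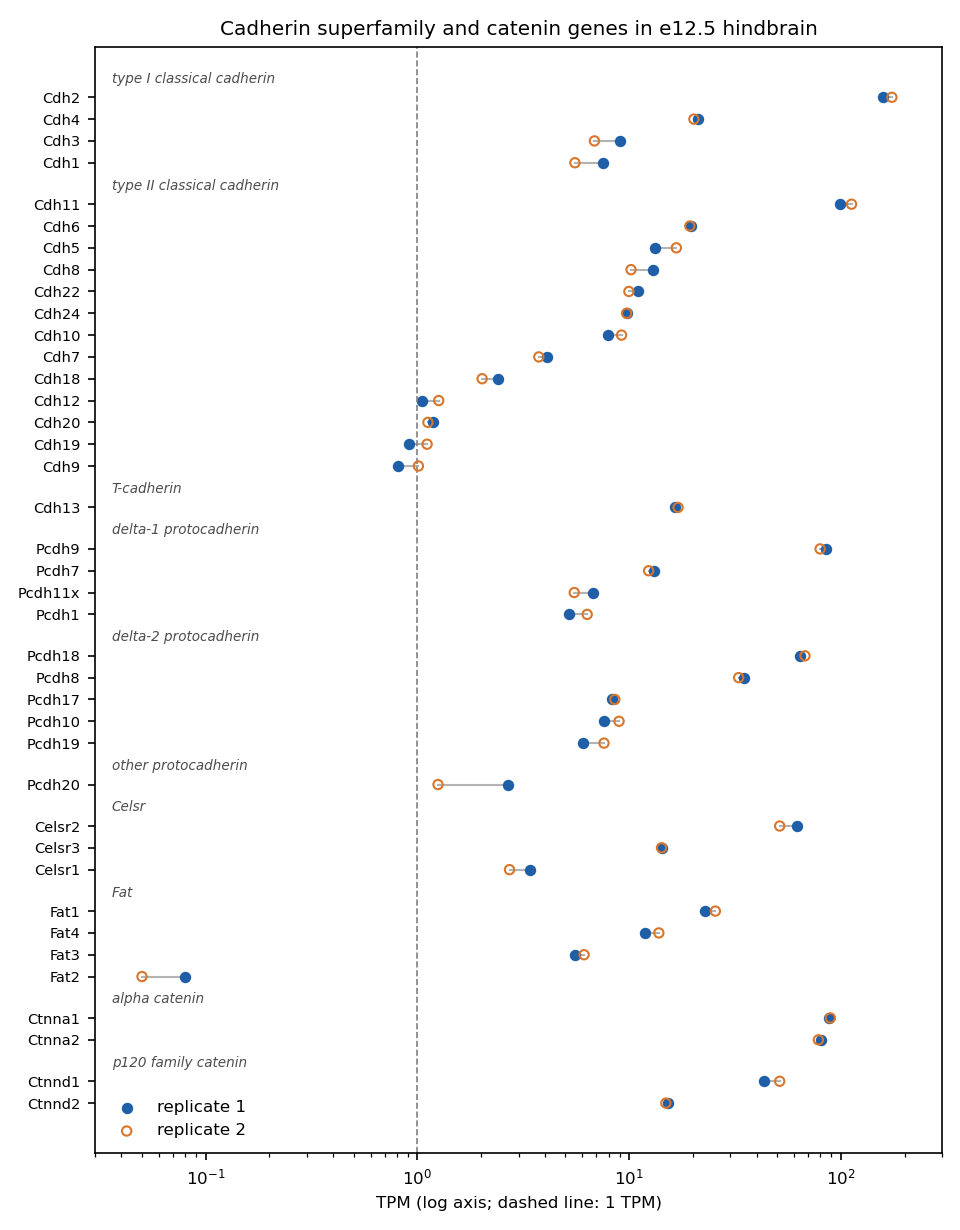
TPM of the 39 genes on a log axis, grouped by structural class and ordered by mean within each class; filled points are replicate 1, open points replicate 2, and the dashed line marks 1 TPM. Cdh2 and Cdh11 stand far to the right of their classes, Fat2 lies lowest at 0.08 TPM in replicate 1 and 0.05 in replicate 2, and the points of Pcdh20 lie farthest apart among the detected genes.

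Among type I cadherins, Cdh2 was by far the highest gene, at 157 TPM in replicate 1 and 174 in replicate 2. Its level of 166 ± 11.7 TPM (SD, n = 2) was at or above that of 96.0% of protein-coding genes. Cdh4 (R-cadherin), which many neurons and glia carry, stood at 21.2 TPM in replicate 1 and 20.2 in replicate 2. Cdh3 (P-cadherin) had 9.02 TPM in replicate 1 and 6.85 in replicate 2. Cdh1 (E-cadherin), the cadherin of most epithelia, had 7.53 TPM in replicate 1 and 5.54 in replicate 2. Cdh2 thus exceeded Cdh4 by 7.42-fold in replicate 1 and 8.61-fold in replicate 2, and Cdh1 by 20.9-fold in replicate 1 and 31.4-fold in replicate 2.

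Cdh11 was the leading type II cadherin at 98.95 TPM in replicate 1 and 112 in replicate 2. It is known from mesenchyme and from subsets of neurons. Cdh6, a cadherin of rhombomeres and of neural crest, followed at 19.5 TPM in replicate 1 and 19.3 in replicate 2, which put Cdh11 above it by 5.07-fold in replicate 1 and 5.80-fold in replicate 2. Cdh5 (VE-cadherin), which marks the junctions of endothelial cells, had 13.2 TPM in replicate 1 and 16.7 in replicate 2. The 6 endothelial markers examined summed to 118 TPM in replicate 1 and 124 in replicate 2, with Esam, Kdr and Cldn5 highest and Tek lowest. In tissue of mixed cells, fewer cells of a type and less RNA per cell cannot be told apart.

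The remaining type II cadherins, many of them known from subsets of neurons, formed a descending series. Cdh8 had 12.9 TPM in replicate 1 and 10.2 in replicate 2, and Cdh22 had 10.98 TPM in replicate 1 and 9.96 in replicate 2. Cdh24 had 9.81 TPM in replicate 1 and 9.72 in replicate 2, and Cdh10 had 7.94 TPM in replicate 1 and 9.20 in replicate 2. Cdh10 was also the median of its class in replicate 1 and in replicate 2. Cdh7 had 4.08 TPM in replicate 1 and 3.74 in replicate 2, and Cdh18 had 2.40 TPM in replicate 1 and 2.02 in replicate 2. Cdh20 had 1.19 TPM in replicate 1 and 1.12 in replicate 2, and Cdh12 had 1.05 TPM in replicate 1 and 1.26 in replicate 2. Cdh19, known from Schwann cell precursors, had 0.91 TPM in replicate 1 and 1.11 in replicate 2, from 60 and 64 counts. Cdh9 had 0.81 TPM in replicate 1 and 1.01 in replicate 2, from 48 and 55 counts. Both reached the threshold in replicate 2 and missed it in replicate 1.

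Of the summed TPM of the 17 classical cadherins, Cdh2 took 41.5% in replicate 1 and 43.1% in replicate 2, and Cdh11 took 26.1% in replicate 1 and 27.8% in replicate 2. The other 15 genes shared the rest, and none of them exceeded the 5.60% of Cdh4 in replicate 1. Cdh13 (T-cadherin), which lacks the catenin-binding tail and is held in the membrane by a lipid anchor, had 16.42 TPM in replicate 1 and 17.01 in replicate 2.

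The catenins were the highest class, with a median of 61.9 TPM in replicate 1 and 64.8 in replicate 2. Ctnna1 (alphaE-catenin), the epithelial form, had 87.96 TPM in replicate 1 and 89.1 in replicate 2. Ctnna2 (alphaN-catenin), the neuronal form, had 80.3 TPM in replicate 1 and 78.2 in replicate 2, or 0.913 times Ctnna1 in replicate 1 and 0.878 times in replicate 2. The order of this pair was the same in both libraries and when the length of the longest coding transcript was used. Ctnnd1 (p120-catenin), which keeps cadherins at the cell surface, had 43.4 TPM in replicate 1 and 51.4 in replicate 2. Ctnnd2 (delta-catenin), its neuronal relative, had 15.2 TPM in replicate 1 and 14.9 in replicate 2.

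Set beside their partners, the 17 classical cadherins summed to 379 TPM in replicate 1 and 404 in replicate 2. Beta-catenin and plakoglobin (Ctnnb1 and Jup), which compete for the same tail site, summed to 514 TPM in replicate 1 and 507 in replicate 2. The 3 alpha-catenins summed to 168 TPM in each of replicates 1 and 2. Ctnna3, the third of them, gave 0.18 TPM in replicate 1 and 0.28 in replicate 2. The p120 family (Ctnnd1, Ctnnd2, Arvcf and Pkp4) summed to 168 TPM in replicate 1 and 159 in replicate 2. RNA for beta-catenin and plakoglobin thus exceeded that for classical cadherins in both libraries, and RNA for alpha-catenins and for the p120 family was below it. RNA levels do not give the amounts of protein.

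Alternative splicing could be seen in only 2 of the catenins, since Ctnna1 and Ctnnd2 were quantified with 1 transcript each. Segments of transcripts were chosen for description after their values were seen, and the share that includes one is the TPM of transcripts with it over that of transcripts with it or with its neighbours joined. In the sequences here and below, from GENCODE M21 transcripts on mm10, 5′ to 3′ on the gene's strand, capitals mark the included segment and lower case the bases joined to it on each side. All 7 segments shown are coding and a multiple of 3 nt, so both forms keep the reading frame. The segments of Ctnna2 and Ctnnd1 are shown because isoforms of similar level differ in each or, for exon B, because the including form has a low share.
Ctnna2 insert exon: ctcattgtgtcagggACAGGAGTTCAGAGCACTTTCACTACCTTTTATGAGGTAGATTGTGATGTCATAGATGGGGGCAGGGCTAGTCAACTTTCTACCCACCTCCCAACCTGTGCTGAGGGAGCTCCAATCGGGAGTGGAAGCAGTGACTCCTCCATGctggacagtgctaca
Ctnnd1 exon C: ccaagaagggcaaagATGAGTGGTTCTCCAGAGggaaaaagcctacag
Ctnnd1 exon A: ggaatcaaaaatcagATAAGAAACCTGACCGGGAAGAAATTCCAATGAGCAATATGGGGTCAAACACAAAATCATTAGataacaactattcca
Ctnnd1 exon B: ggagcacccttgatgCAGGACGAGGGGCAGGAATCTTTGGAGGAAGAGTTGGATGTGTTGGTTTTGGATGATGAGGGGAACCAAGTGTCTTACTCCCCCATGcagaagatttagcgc

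The Ctnna2 insert is an exon of 144 nt at chr6:76902287-76902430, minus strand, near the 3′ end of the coding sequence. It was included in 63.1% of transcripts in replicate 1 and 60.3% in replicate 2. The main forms were Ctnna2-202 with it, holding 54.8% of the gene's TPM in replicate 1 and 54.3% in replicate 2, and Ctnna2-205 without it, at 32.1% in replicate 1 and 35.7% in replicate 2. Both forms were therefore abundant in each library. Ctnna2-202 has 3908 nt and Ctnna2-205 has 4018 nt, so they also differ outside the insert. The share compares whole transcripts and cannot be set down to the insert alone.

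Ctnnd1 exon C, of 18 nt at chr2:84612532-84612549 on the minus strand, lies in the part that codes for the armadillo repeats. It was included in 49.9% of transcripts in replicate 1 and 63.8% in replicate 2, the widest gap between libraries among the 7 segments. Exon A, of 63 nt at chr2:84605184-84605246, was included in 53.4% in replicate 1 and 51.5% in replicate 2. These shares count Ctnnd1-230 as including, a non-coding entry of 810 nt, and would be lower without it. Ctnnd1-230 had 3.79 TPM in replicate 1 and 4.87 in replicate 2. By expected counts exon A was included in 51.7% in replicate 1 and 49.1% in replicate 2. Exon B, of 87 nt at chr2:84603188-84603274, was listed at 0% in replicate 1 and 0.629% in replicate 2 although 9 annotated transcripts hold it. By posterior mean TPM, an estimate that the authors deposited beside the TPM, exon B was included in 3.84% in replicate 1 and 4.27% in replicate 2, and the other 6 segments in 50.3% to 65.6%. Ctnnd1 has 30 annotated transcripts and its leading one differed between libraries. Ctnnd1-202 had 31.3% of the TPM in replicate 1 and 20.4% in replicate 2, whereas Ctnnd1-223 had 7.34% in replicate 1 and 26.2% in replicate 2. The division among so many similar transcripts rests on how the authors assigned shared fragments.

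Among delta-1 protocadherins, the subfamily with the larger number of extracellular cadherin repeats, Pcdh9 was the highest at 84.6 TPM in replicate 1 and 79.7 in replicate 2. Pcdh7 had 13.1 TPM in replicate 1 and 12.4 in replicate 2, so Pcdh9 was 6.47-fold higher in replicate 1 and 6.45-fold higher in replicate 2. Pcdh11x, on the X chromosome, had 6.75 TPM in replicate 1 and 5.50 in replicate 2. Pcdh1 had 5.22 TPM in replicate 1 and 6.33 in replicate 2. Pcdh11x and Pcdh1 lay below the class median of 9.91 TPM in replicate 1 and 9.34 in replicate 2.

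Among delta-2 protocadherins, many of which bind an actin-regulating complex through a conserved tail motif, Pcdh18 and Pcdh8 stood apart. Pcdh18 had 64.3 TPM in replicate 1 and 67.6 in replicate 2. Pcdh8 (paraxial protocadherin or arcadlin) had 34.7 TPM in replicate 1 and 32.9 in replicate 2. Pcdh17 had 8.30 TPM in replicate 1 and 8.55 in replicate 2, and Pcdh10 (OL-protocadherin) had 7.57 TPM in replicate 1 and 8.95 in replicate 2. Pcdh19, an X-linked gene whose human counterpart is mutated in an epilepsy of females, had 6.02 TPM in replicate 1 and 7.60 in replicate 2. The ranges of Pcdh17, Pcdh10 and Pcdh19 overlapped pair by pair in that order, and those of Pcdh18 and Pcdh8 overlapped no other member of the subfamily. Pcdh20, which belongs to neither subfamily, had 2.67 TPM in replicate 1 and 1.25 in replicate 2, and these values did not overlap with those of any other protocadherin.

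Pcdh8 and Pcdh19 each had a long and a short coding form at similar levels, and a segment in which the forms differ is shown for that reason.
Pcdh19 exon 2: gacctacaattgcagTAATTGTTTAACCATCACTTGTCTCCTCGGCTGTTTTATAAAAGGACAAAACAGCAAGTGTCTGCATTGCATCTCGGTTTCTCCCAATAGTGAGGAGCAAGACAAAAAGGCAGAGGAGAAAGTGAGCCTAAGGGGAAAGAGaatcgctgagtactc
Pcdh8 long insert: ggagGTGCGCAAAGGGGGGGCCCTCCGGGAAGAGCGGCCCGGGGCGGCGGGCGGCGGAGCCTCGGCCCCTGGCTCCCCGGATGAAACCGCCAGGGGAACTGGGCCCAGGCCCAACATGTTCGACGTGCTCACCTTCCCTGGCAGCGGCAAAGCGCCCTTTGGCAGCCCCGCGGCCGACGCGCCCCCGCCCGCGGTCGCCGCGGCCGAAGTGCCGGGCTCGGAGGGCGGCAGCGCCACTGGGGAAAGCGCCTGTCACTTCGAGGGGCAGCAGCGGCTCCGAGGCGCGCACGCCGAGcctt
Pcdh19 exon 2, of 141 nt at chrX:133682092-133682232 on the minus strand, was included in 58.3% of transcripts in replicate 1 and 63.2% in replicate 2. Pcdh19-202 with it has 10289 nt and Pcdh19-203 without it has 8407 nt, so these forms also differ outside this exon. The share compares whole transcripts and cannot be set down to the exon alone. The Pcdh8 segment is the last 291 nt of the first exon, at chr14:79768497-79768787 on the minus strand, kept or removed by a choice of splice donor. It was kept in 52.5% in replicate 1 and 63.2% in replicate 2, and 76.6% of its bases are G or C. The leading Pcdh19 entry by TPM was neither coding form but Pcdh19-204, a fragment of 335 nt annotated for nonsense-mediated decay. It held 41.1% of the gene's TPM in replicate 1 and 42.1% in replicate 2, but 1.72% of its counts in replicate 1 and 1.77% in replicate 2. The TPM of Pcdh19 is thus raised by a short entry with few reads.

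The Celsr genes, whose products combine cadherin repeats with an adhesion GPCR domain, were ordered Celsr2, Celsr3 and Celsr1 in both libraries. Celsr2 had 61.7 TPM in replicate 1 and 51.4 in replicate 2. Celsr3, needed for axon tracts, had 14.22 TPM in replicate 1 and 14.21 in replicate 2. Celsr1, known from neural tube closure and the ventricular zone, had 3.40 TPM in replicate 1 and 2.72 in replicate 2. Celsr2 was 18.1-fold above Celsr1 in replicate 1 and 18.9-fold in replicate 2. With the length of the longest coding transcript that ratio was 9.62 in replicate 1 and 11.1 in replicate 2, because short entries raise the TPM of Celsr2.

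The 11 other planar polarity genes examined were all detected, with a median of 22.4 TPM in replicate 1 and 22.6 in replicate 2. Ptk7 had 65.3 TPM in replicate 1 and 65.5 in replicate 2, Fzd3 had 59.4 and 59.97 TPM, and Vangl2 had 48.8 and 54.4 TPM in replicates 1 and 2. Fzd6 was the lowest at 9.01 TPM in replicate 1 and 8.32 in replicate 2. The mean TPM of Celsr2 lay among those of these 3 highest genes, and Celsr1 was below the lowest. With the length of the longest coding transcript Celsr2 averaged 35.8, and these 11 genes are not given on that scale here.

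Among Fat cadherins, Fat1 was the highest at 22.8 TPM in replicate 1 and 25.5 in replicate 2. Fat4, the receptor for Dachsous, had 11.9 TPM in replicate 1 and 13.8 in replicate 2. Fat3, known from neuron shape in the retina, had 5.55 TPM in replicate 1 and 6.12 in replicate 2. Fat2, known from cerebellar granule cells, had 0.08 TPM in replicate 1 and 0.05 in replicate 2, from 22 and 12 counts over a very long transcript. By TPM the ranges of the Fat genes did not overlap, but with the length of the longest coding transcript those of Fat1 and Fat4 did. Dchs1, the main partner of Fat4, had 22.1 TPM in replicate 1 and 23.3 in replicate 2, and Dchs2 had 1.09 TPM in replicate 1 and 0.85 in replicate 2. Fjx1, a kinase of the same pathway, was the highest of the 4 pathway genes at 36.0 TPM in replicate 1 and 36.6 in replicate 2, and Lix1l had 4.66 TPM in replicate 1 and 4.63 in replicate 2.

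A short segment in the part of Fat1 that codes for the cytoplasmic tail is shown because its share depends on the measure.
Fat1 cytoplasmic exon: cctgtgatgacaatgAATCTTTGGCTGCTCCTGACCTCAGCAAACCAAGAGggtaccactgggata
This exon of 36 nt lies at chr8:45049842-45049877 on the plus strand. It was included in 62.9% of transcripts in replicate 1 and 62.1% in replicate 2 by TPM, but in 33.4% in replicate 1 and 32.2% in replicate 2 by expected counts. The including transcript Fat1-203 was quantified as 4770 nt, against 14651 nt in GENCODE M21, and the skipping transcript Fat1-205 as 14814 nt. Whether the shorter model held the segment was not checked, so the share for Fat1 is uncertain.

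**Figure D2:**
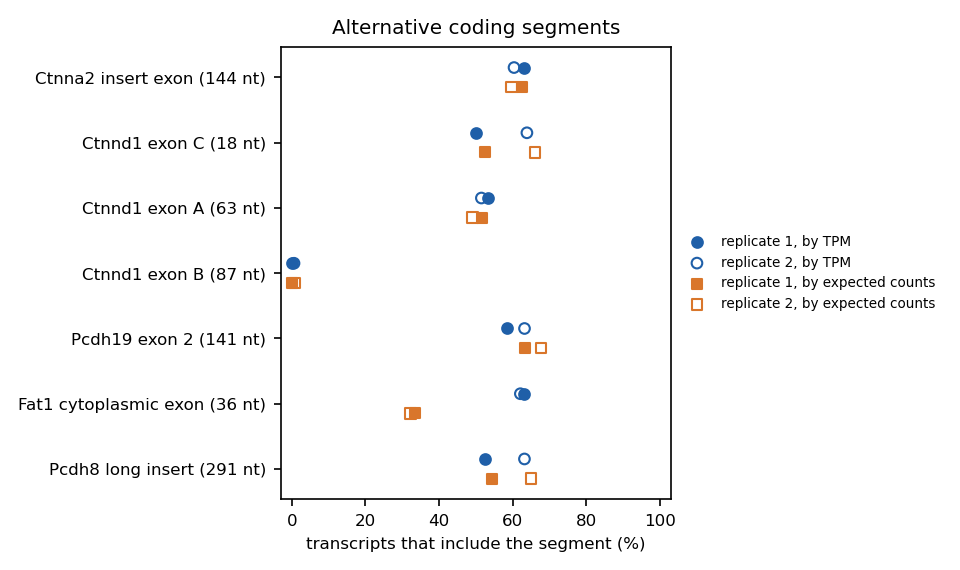
Percent of transcripts that include each of 7 coding segments, by TPM (circles) and by expected counts (squares), in replicate 1 (filled) and replicate 2 (open). Exon B of Ctnnd1 lies near 0 and the others between 49.9% and 63.8% by TPM; the Fat1 squares lie near 33% while its circles lie near 62%.

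Across the whole set, 24 of the detected genes have several annotated transcripts, and 22 of these had the same leading transcript in both libraries, against 90.6% of 9860 protein-coding genes with several transcripts. The share was near that background. The exceptions were Ctnnd1 and Cdh18. Cdh18-203, the full coding form, led in replicate 1 with 38.4% and had 16.2% in replicate 2, and Cdh18-202, with an incomplete reading frame, had 32.3% in replicate 1 and 54.3% in replicate 2. Cdh18 rests on 92 counts in replicate 1 and 62 counts in replicate 2.

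In 9 genes at least 2 transcripts held 20% or more in both libraries, and no share over other genes was computed. Cdh2-202 had 61.9% in replicate 1 and 58.9% in replicate 2, and Cdh2-201, the form with the longer coding sequence, had 30.9% in replicate 1 and 32.6% in replicate 2. For Pcdh9, Pcdh9-205 with an incomplete reading frame had 63.9% in replicate 1 and 62.8% in replicate 2, beside Pcdh9-204 at 23.1% in replicate 1 and 24.6% in replicate 2. Pcdh7, Pcdh11x and Pcdh19 had 3 such transcripts each, those of Pcdh19 including the Pcdh19-204 described above. Pcdh7-203 led its gene by TPM with 45.5% in replicate 1 and 40.1% in replicate 2. Pcdh11x-203 led by TPM with 42.5% in replicate 1 and 42.9% in replicate 2. Another of the 3 was Pcdh11x-207, a retained-intron entry, at 27.5% in replicate 1 and 27.3% in replicate 2. By expected counts Pcdh11x-202 led in both libraries, and by posterior mean TPM the share of Pcdh11x-203 was 31.9% in replicate 1 and 25.8% in replicate 2, and it led in replicate 1 only. Celsr3-201 had 52.7% in each of replicates 1 and 2, beside the fragment Celsr3-202 at 22.6% in replicate 1 and 25.5% in replicate 2. In Cdh7 the leading Cdh7-208 has 4776 nt but a coding sequence of 228 nt, and held 44.2% in replicate 1 and 57.4% in replicate 2. Of the Cdh7 forms with a coding sequence of 2355 nt, only Cdh7-202 was above 0. It had 0.42 TPM in replicate 1 and 0.28 in replicate 2, so most of the gene's TPM came from other entries.

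**Figure D3:**
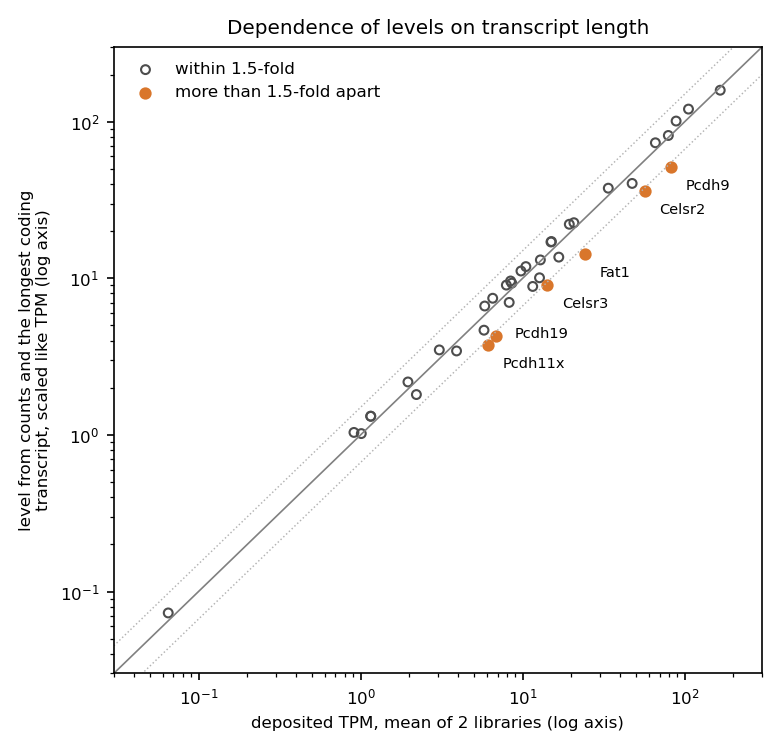
Deposited mean TPM of each of the 39 genes (x, log axis) against the level computed from its counts and the length of its longest coding transcript (y, log axis); the solid line marks equality and the dotted lines 1.5-fold. The 6 filled genes (Pcdh9, Celsr2, Fat1, Celsr3, Pcdh19, Pcdh11x) lie more than 1.5-fold below equality.

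Because a deposited gene level depends on the lengths of the transcripts it was assigned to, levels were also computed from counts and the longest coding transcript. On that scale genes with 1 transcript stood 1.14 times higher from the rescaling alone, as Cdh11 did. Pcdh9 stood at 0.623, Celsr2 at 0.634, Celsr3 at 0.639, Pcdh19 at 0.628, Pcdh11x at 0.612 and Fat1 at 0.589 times their TPM. Fat1 then had 13.7 in replicate 1 and 14.7 in replicate 2, close to Fat4 at 12.3 in replicate 1 and 13.9 in replicate 2, so the lead of Fat1 over Fat4 was 1.12-fold in replicate 1 and 1.06-fold in replicate 2 in place of 1.91-fold and 1.85-fold. Cdh2 and Cdh11 remained the 2 highest genes on either scale. For Cdh6 the transcript was quantified as 2632 nt, against 8167 nt in GENCODE M21, and for 13 of the 39 genes the leading transcript differs in length between the 2 annotations.

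In the order of mean levels, 19 of the 38 pairs of neighbours had overlapping values. Pcdh9 and Ctnna2 overlapped, as did Celsr2 and Ctnnd1. A run of neighbours from Ctnnd2 through Cdh5 to Celsr3 overlapped pair by pair, as did one from Fat4 through Pcdh7 and Cdh8 to Cdh22. The longest run went from Cdh10 through Pcdh17, Pcdh10, Cdh3, Pcdh19, Cdh1, Pcdh11x and Fat3 to Pcdh1, so the order within it is not resolved by 2 libraries. Cdh18, Pcdh20, Cdh12 and Cdh20 formed another, and Cdh19 and Cdh9 overlapped at the low end. The 19 other pairs did not overlap, but this alone does not resolve their order. For Cdh22 and Cdh24, 95% intervals for counting error overlapped, at 9.19 to 10.8 and 8.84 to 10.7 TPM in replicate 2. With the length of the longest coding transcript, some orders reversed. Fat1 then averaged 14.2, below Cdh4 at 22.6, and Celsr3 9.08, below Fat4 at 13.1. Pcdh9, at 51.2, then fell below Pcdh18 at 73.4.

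The 2 pools were compared gene by gene with the edgeR exact test, a common dispersion from the same libraries and Benjamini-Hochberg adjustment over 19209 genes. It called 301 genes, or 1.57%, at an adjusted p below 0.05. Of the 39 genes 1 was called. An unadjusted p below 0.05 by this test was found for 3 of the 39 genes and for 1285 of the 19209 tested. The called gene was Pcdh20, with 251 counts in replicate 1 and 112 in replicate 2, a log2 ratio of replicate 1 over replicate 2 of 1.06 and an adjusted p of 0.00199 by the edgeR exact test. With spike-in totals as the scale none of the 39 genes was called by edgeR, and the adjusted p of Pcdh20 was 0.35. An unadjusted edgeR p below 0.05 was then found for 1 of the 39 genes and for 688 of the 19209 tested. That scale moves the median gene by 0.37 on the log2 scale. The exact binomial test, which allows for counting error only, called 18 of the 39 and 20.4% of all genes.

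**Figure D4:**
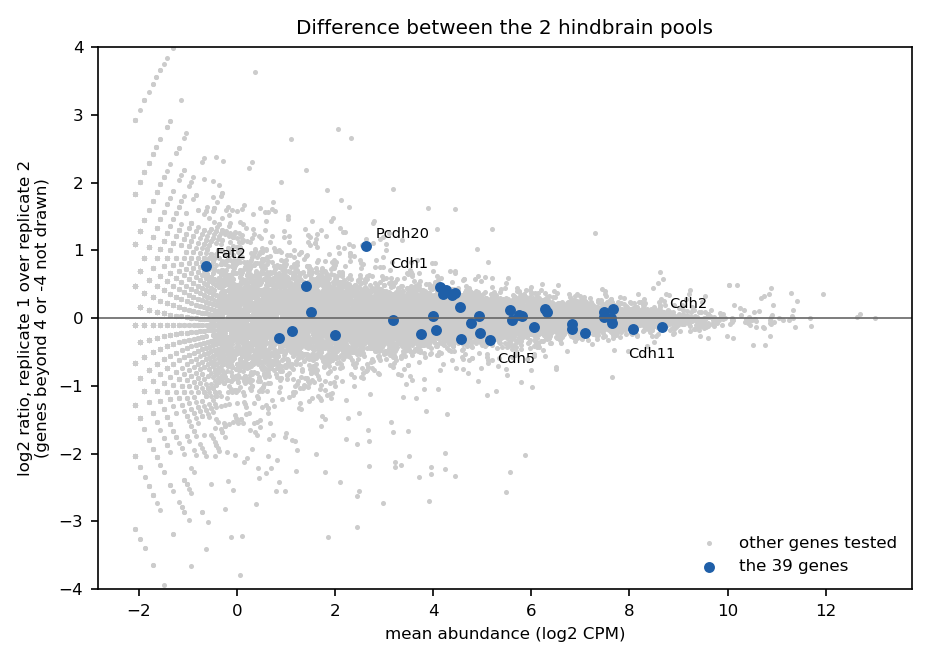
Log2 ratio of replicate 1 over replicate 2 (y) against mean abundance in log2 CPM (x) for the 19209 genes tested (grey) and the 39 genes (blue); 51 genes beyond a ratio of 4 or -4 are not drawn. Pcdh20 lies highest among the blue points at 1.06, and the abundant genes such as Cdh2 and Cdh11 lie near 0.

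Cdh1 and Cdh3, which had the other unadjusted p-values below 0.05, were also higher in replicate 1. The log2 ratio was 0.46 for Cdh1 and 0.41 for Cdh3, and the edgeR adjusted p was 0.551 for Cdh1 and 0.711 for Cdh3. Of 6 markers of epithelium and the otic vesicle, 5 had a higher TPM in replicate 1 and 3 of them were called by edgeR. These were Oc90 at 247 TPM in replicate 1 and 107 in replicate 2, Epcam at 33.0 and 16.4 TPM, and Cldn6 at 27.5 and 11.2 TPM in replicates 1 and 2. Krt5, at 11.6 TPM in replicate 1 and 13.4 in replicate 2, was the exception and had the lowest mean TPM. Krt18 had 25.2 TPM in replicate 1 and 16.5 in replicate 2 and was not called by edgeR. The 6 markers summed to 369 TPM in replicate 1 and 180 in replicate 2, none was at 0, and their part in the values of Pcdh20, Cdh1 and Cdh3 was not tested.

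Markers of other tissues also differed between the pools. All 6 skeletal muscle markers (Actc1, Acta1, Myog, Myh3, Ttn and Myf5) were called lower in replicate 1 and summed to 47.8 TPM in replicate 1 and 218 in replicate 2. Cdh15 (M-cadherin), a cadherin of muscle outside the set, had 1.79 TPM in replicate 1 and 5.71 in replicate 2 and was called by the edgeR exact test (adjusted p = 1.44e-08). Of 6 cartilage markers, Acan, Matn1 and Hapln1 were called lower in replicate 1, while Col2a1, Sox9 and Col9a1 were the highest and Acan the lowest; Col2a1 had 376 TPM in replicate 1 and 397 in replicate 2. The 6 mesenchyme and meninges markers all had lower TPM in replicate 1, with sums of 1368 TPM in replicate 1 and 1779 in replicate 2, and none was called. Col3a1, Col1a1 and Col1a2 were the highest and Dcn the lowest of them. Cdh11, known from mesenchyme, was lower in replicate 1 with a log2 ratio of -0.16 and an edgeR adjusted p of 1, and the part of these markers in its value was not tested.

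Of 6 markers of neural crest and Schwann cell precursors, Sox10 was called higher in replicate 1 at 15.4 TPM, against 9.60 TPM in replicate 2. Fabp7, which progenitors also carry, was the highest of that list, followed by Sox10. Choroid plexus markers summed to 371 TPM in replicate 1 and 442 in replicate 2, led by Ttr, Kcne2 and Otx2 with Folr1 lowest. Red blood cell markers summed to 12901 TPM in replicate 1 and 10091 in replicate 2, led by Hbb-y, Hba-a1 and Hba-x; fragments of the alpha-globin copies are hard to divide. The 6 neuronal markers summed to 2083 TPM in replicate 1 and 2167 in replicate 2, with Tubb3, Nefl and Stmn2 highest and Snap25 lowest. The 6 progenitor markers summed to 2598 TPM in replicate 1 and 2379 in replicate 2, with Fabp7, Vim and Hes5 highest and Pax6 lowest. No gene of these last 4 lists was called by edgeR.

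Other genes of the pathway were described from fixed lists. Of 13 junction partners, 12 were detected and none was called by edgeR. Ctnnb1, at 463 TPM in replicate 1 and 456 in replicate 2, was the highest, followed by Afdn (afadin, which links nectins to actin) at 125 TPM in each of replicates 1 and 2 and Arvcf at 93.4 TPM in replicate 1 and 79.3 in replicate 2. Afdn had fewer counts than Arvcf, 3751 against 6200 in replicate 1 and 3297 against 4916 in replicate 2. Their order by TPM thus depends on the transcript lengths used. The partner not detected was Ctnna3. All 6 factors known to repress Cdh1 were detected, led by Tcf3 at 147 TPM in replicate 1 and 143 in replicate 2, with Zeb2 at 36.9 and 49.8 TPM and Zeb1 at 40.3 and 42.5 TPM in replicates 1 and 2. Snai2 was the lowest at 18.8 TPM in replicate 1 and 23.0 in replicate 2. All 5 cadherin proteases were detected, from Adam10, which cuts the extracellular part of Cdh2, at 72.1 TPM in replicate 1 and 80.5 in replicate 2, down to Furin at 5.62 TPM in replicate 1 and 4.96 in replicate 2.

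Of 10 cadherins outside the set, 6 were detected. Clstn1, a calsyntenin of neurons, had 112 TPM in replicate 1 and 109 in replicate 2, Clstn3 had 33.4 and 29.9 TPM, and Clstn2 had 3.53 and 4.93 TPM in replicates 1 and 2. Cdh16, a kidney cadherin, was listed at 0 in both. The 10 genes had a median of 2.57 TPM in replicate 1 and 4.16 in replicate 2, against 10.98 TPM in replicate 1 and 9.96 in replicate 2 over the 39 genes.

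Of the 39 genes, 19 lie in 5 chromosomal neighbourhoods of cadherin or protocadherin genes. Levels within them are described below, and no background of other adjacent genes was computed. Cdh6, Cdh9, Cdh10, Cdh12 and Cdh18 span 10.4 Mb of chromosome 15 (13028701 to 23474418, mm10) with 1 other protein-coding gene, and their mean TPM differed up to 21.3-fold. Pcdh8, Pcdh17, Pcdh20 and Pcdh9 span 14.1 Mb of chromosome 14 (79766775 to 93890679) with 3 other protein-coding genes and differed most between Pcdh9, the highest, and its neighbour Pcdh20, the lowest. That difference was 31.7-fold in replicate 1, 63.8-fold in replicate 2, 41.9-fold between the mean levels and 23.5-fold with the length of the longest coding transcript, so its size depends on the library and on the length used. On chromosome 8 (99024471 to 106670246) the span holds 87 other protein-coding genes, 86 of them between Cdh5 and Cdh3. Cdh11 lies there between Cdh8 and Cdh5, and its mean level exceeded that of Cdh8 by 9.15-fold and that of Cdh5 by 7.06-fold. The ratio to Cdh8 was 7.68 in replicate 1, 11.0 in replicate 2 and 13.6 with the length of the longest coding transcript. Cdh3 and Cdh1, 46.1 kb apart on the same chromosome, differed by 1.21-fold. Cdh20, Cdh7 and Cdh19 on chromosome 1, with 20 other protein-coding genes in their span, differed up to 3.87-fold. Pcdh10 and Pcdh18 on chromosome 3, with 1 other protein-coding gene, differed by 7.98-fold, or 10.5-fold with the length of the longest coding transcript.

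**Figure D5:**
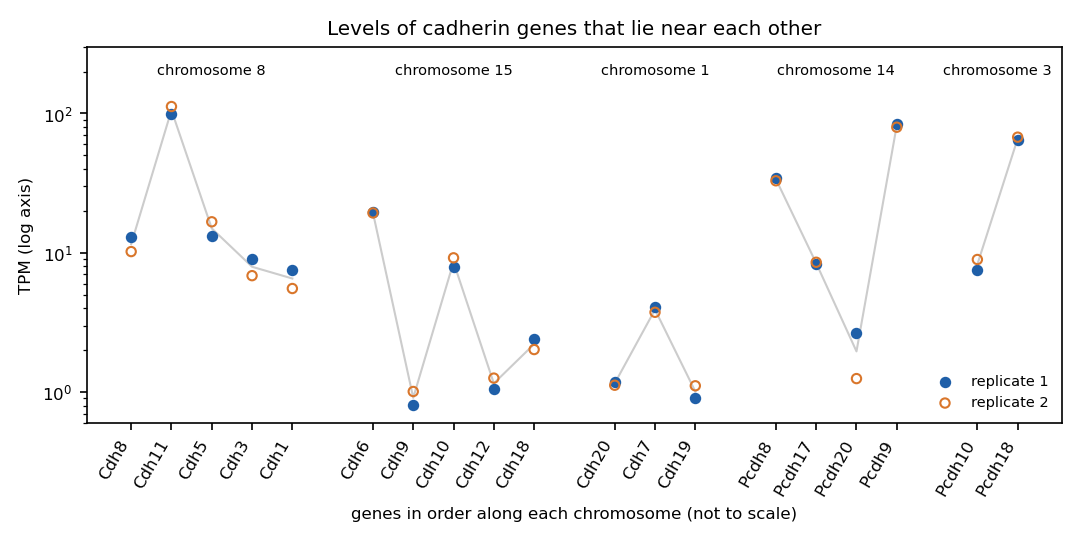
TPM (log axis) of cadherin and protocadherin genes that share a chromosomal neighbourhood, in their order along the chromosome, with filled points for replicate 1, open points for replicate 2 and grey lines joining the means. Cdh11 peaks among its chromosome 8 neighbours, and Pcdh9 and Pcdh20 on chromosome 14 differ 31.7-fold in replicate 1 and 63.8-fold in replicate 2.

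The genes themselves are long, and 24 of the 39 span more than 100 kb of genome, beside 11.5% of protein-coding genes. Cdh12 spans 1140 kb and Ctnna2 1098 kb, whereas Pcdh8 spans 4.54 kb. Span and mean TPM had a Spearman's rho of 0.025 across the 39 genes, given as a description, since genes are not independent replicates and share both libraries. Exons of 10 of the 39 genes overlap those of another annotated gene, on the opposite strand in 8 of them. No share of such overlaps over other genes was computed. Of the genes that overlap an exon, 3 reached 1 TPM in both libraries: Lrrtm2 within Ctnna1 at 3.93 TPM in replicate 1 and 4.05 in replicate 2, C230034O21Rik at Fat4 at 3.05 and 3.82 TPM, and 4932441J04Rik at Pcdh7 at 1.21 and 1.85 TPM in replicates 1 and 2. Lrrtm1, at 17.7 TPM in replicate 1 and 16.6 in replicate 2, lies within the span of Ctnna2 on the opposite strand with no exon in common. The sources used here do not say if strand was kept, so reads in these overlaps cannot be told apart.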

How the data were processed

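Total RNA-seq of 2 libraries of 1 group was used. The authors deposited, per the file headers, expected counts, TPM and posterior mean TPM for genes and transcripts, effective lengths, and the percent of each gene's TPM in each transcript. The tables are on mm10 with GENCODE M4, per the notes deposited with them; the sources used here do not name the aligner or the quantifier. Names and exon models came from GENCODE M21, which matched 42462 of the 43346 Ensembl genes. A set of 26248 numbered entries that name no gene, holding 0.000107% of counts in replicate 1 and 0.000114% in replicate 2, stayed out of tests.

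Levels are the deposited TPM. Expected counts were rounded, filtered at 10 or more summed over both libraries, scaled by TMM and compared with the exact test of edgeR 4.0.16 (R 4.3.3), with a common dispersion from an intercept-only design (coefficient of variation 9.02%). The p-values compare the 2 libraries only. Alternatives used DESeq2 1.42.0 size factors, library or spike-in totals, other filters, other dispersions, an exact binomial test (R 4.3.3) and other scales of TPM. Genes named from a list are its 3 highest and its lowest by mean TPM and any called. Some genes that this rule names are not reported here. The members and lists were chosen with earlier results of these data known. Genes that share fragments with near-identical copies, and transcript shares, depend on how the authors divided fragments.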

Additional observations from a re-analysis of the deposited data

How the results depend on the processing

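The count of detected genes among the 39 was between 30 and 38 under every alternative, with 38 in nuclear protein-coding TPM without globins and 30 at a threshold of 5 TPM; without replicate 1 it was 38 and without replicate 2 it was 36. Class medians moved with the scale of TPM. Over Ensembl genes only, they were 15.8 (type I), 9.49 (type II), 10.6 (delta-1), 9.55 (delta-2), 15.7 (Celsr), 10.4 (Fat) and 70.1 (catenins). Over nuclear protein-coding genes without globins, they were 18.6, 11.1, 12.5, 11.2, 18.5, 12.2 and 82.3 in the same order. With the length of the longest coding transcript, an alternative chosen after seeing the data as were those for transcript shares, they were 15.9 (type I), 7.37 (delta-1), 9.61 (delta-2), 9.08 (Celsr) and 61.0 (catenins); by construction the last scale removes the effect of short transcripts. With posterior mean TPM the Celsr median was 14.6. The edgeR exact test called 62 genes with spike-in totals, 191 with 20 or more counts in each library and 529 with the dispersion of spike-ins, and the exact binomial test called 3911. Of the 39 genes these called 0 with spike-in totals and 18 with the binomial test, and Pcdh20 alone in the other alternatives. No paired analysis was possible because the libraries form only 1 group. With 2 libraries, an SD rests on a single difference, and the 3 genes not detected rest on 12 to 64 counts a library.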
